A study of Arabidopsis thaliana with 90 samples.

Results

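H2A.Z and trimethylation of histone H3 at lysine 4 (H3K4me3) were compared in wild-type Arabidopsis seedlings of the same age, with 3 H2A.Z and 3 H3K4me3 chromatin immunoprecipitation libraries, 6 of the 90 libraries of the series. The libraries were chosen by feature and genotype alone, without use of their values. All 6 were made from Col-0 seedlings 9 days old, grown on MS medium in continuous white light, with no transgene or treatment named for them. Tissue was cross-linked with formaldehyde and sonicated, and replicates were biological per the labels, which do not say whether libraries of the 2 features came from the same plants. H2A.Z was precipitated with the antibody ABE1348 and H3K4me3 with the antibody 04-745, so the libraries of the 2 features differ in antibody as well as in target. A whole seedling holds many cell types, and a gene called for both features may carry them in the same cells or in different cells, which cannot be told apart here.

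H2A.Z is a variant of histone H2A that the SWR1 complex places into nucleosomes, in plants mostly next to the start of genes, and it also lies across the bodies of genes that respond to temperature, pathogens or development. H3K4me3 is written at the start of transcribed genes by COMPASS-type methyltransferases, which work with the shared subunit WDR5. Both marks are known from the first nucleosomes of plant genes, and the comparison asks how far they occupy the same genes and the same positions within them.

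The H2A.Z lists held more and narrower peaks than the H3K4me3 lists. On chromosomes 1 to 5 there were 27063, 26019 and 25883 H2A.Z peaks in replicates 1 to 3, and 15948, 16164 and 15999 H3K4me3 peaks. The groups did not overlap, and the means of 26322 ± 646 and 16037 ± 113 peaks (SD, n = 3 each) differed with p = 0.1 in the exact two-sided permutation test over libraries, the smallest p that 3 against 3 allows. Median widths were 544, 544 and 549 bp for H2A.Z, against 787, 805 and 794 bp for H3K4me3. Every H2A.Z library was narrower, with a mean difference of -249.7 bp (p = 0.1, same exact permutation test), and 7.88% ± 0.211 of H2A.Z peaks but 25.1% ± 0.729 of H3K4me3 peaks were over 1 kb wide (SD, n = 3 each). With that width the shorter H3K4me3 lists covered nearly as much sequence, 15.6 ± 0.295 Mb for H2A.Z and 13.9 ± 0.241 Mb for H3K4me3. Summits, the highest point the caller gives for each peak, lay in protein-coding genes for 87.2% ± 0.52 of H2A.Z peaks and 96.8% ± 0.0287 of H3K4me3 peaks (p = 0.1, exact permutation test). Peak lists hold no read totals, so the depth of the libraries is unknown. Peaks found in both other libraries of the feature made up 90.1% ± 2.00 of H2A.Z and 97.2% ± 0.844 of H3K4me3 peaks (SD, n = 3). The fold deposited for a peak is the caller's ratio over its own background, had medians of 3.44 in each H2A.Z library and of 6.48 to 7.04 in the H3K4me3 libraries, and was used only to rank peaks within a list.

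Most protein-coding genes carried both features, and H3K4me3 without H2A.Z was the rarest state. A gene was called for a feature when a peak touched 500 bp to either side of either gene end in all 3 libraries, which lets adjacent genes be called from the same peak. Of 27444 genes, 21596 were called for H2A.Z (78.7%) and 17352 for H3K4me3 (63.2%). Both were called at 16574 genes (60.4%). H2A.Z in all 3 libraries with H3K4me3 in none was found at 4406 genes (16.1%), and H3K4me3 in all 3 libraries with H2A.Z in none at 353 genes (1.29%). Neither feature was found in any library at 3625 genes (13.2%), and the remaining 2486 (9.06%) differed between replicates. Genes with H2A.Z had H3K4me3 in 76.7% of cases, against 13.3% of the other genes. Genes with H3K4me3 had H2A.Z in 95.5% of cases, against 49.8% of the other genes. The odds ratio was 21.5, and single pairs of an H2A.Z and an H3K4me3 library gave 22.0 to 23.8 over 9 pairs. The sizes of the 2 single-feature classes depended on the lengths of the lists. When every list was trimmed to its 15948 best-scoring peaks, H2A.Z alone was left at 1470 genes and H3K4me3 alone at 1806, with 14130 genes holding both and an odds ratio of 19.8. The rarity of H3K4me3 without H2A.Z is thus a statement about the full lists.

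A peak of the other feature could also lie inside a long gene, away from its ends. Of the 4406 genes with H2A.Z alone, 4300 (97.6%) had no H3K4me3 peak in any library within the gene or 500 bp around it, and 74 had one inside the gene in all 3 libraries. Of the 353 genes with H3K4me3 alone, 295 (83.6%) were clear of H2A.Z in the same sense, and 40 held an H2A.Z peak inside in all 3 libraries. The 40 had a median length of 2637 bp, and the 295 a median of 1836 bp.

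The 4 classes differed in features that were not used to form them. RNA polymerase II (Pol II), called by a peak over the gene in all 3 of its libraries, was found at 57.0% of the genes with both, 11.01% of those with H2A.Z alone, 84.4% of those with H3K4me3 alone and 7.67% of those with neither, against 40.8% of all genes. The Ser5-phosphorylated form, which marks early transcription, stood at 56.2%, 9.76%, 77.3% and 6.76% of the same classes in that order, against 39.6% of all genes. The Ser2-phosphorylated form, which marks elongation, stood at 58.2%, 13.5%, 84.1% and 10.04%, against 42.2%. For all 3 forms the share was highest in genes with H3K4me3 alone, followed by those with both, those with H2A.Z alone and those with neither. WDR5A-HA, the tagged COMPASS subunit, was called at 72.3% of genes with both, 15.98% of those with H2A.Z alone, 82.7% of those with H3K4me3 alone and 6.70% of those with neither, against 51% of all genes. Regions of TBP, the TATA-binding protein, for which a single list without replicates was used, lay at 74.8%, 29.0%, 89.5% and 15.8% of the genes in these classes, against 56.9% of all genes. The features come from separate libraries, those of WDR5A-HA from plants with a tagged protein, and the shares describe 27444 genes with no test over genes.

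**Figure D1:**
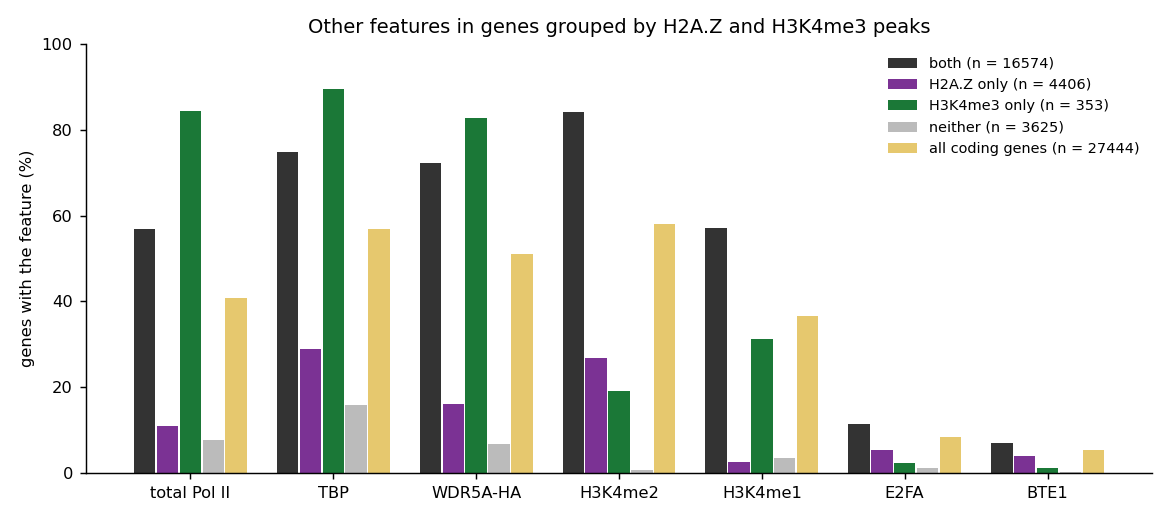
Share of genes with a further feature (y axis, %) for total Pol II, TBP, WDR5A-HA, H3K4me2, H3K4me1, E2FA and BTE1, in genes called for both H2A.Z and H3K4me3, for H2A.Z alone, for H3K4me3 alone, for neither, and in all coding genes. Genes with both reach 84.2% for H3K4me2, while genes with H3K4me3 alone have the highest Pol II bar at 84.4% and an H3K4me2 bar of 19.0%.

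The lower methylation states followed another order. H3K4me2 was called at 84.2% of the genes with both, 26.8% with H2A.Z alone, 19.0% with H3K4me3 alone and 0.772% with neither, against 58% of all genes. H3K4me1, scored over the gene, was called at 57.0%, 2.50%, 31.2% and 3.42%, against 36.5%. The genes with H3K4me3 alone therefore combined the highest share of Pol II with a share of H3K4me2 below that of all genes. The DREAM-complex protein BTE1 was called at 7.05% of genes with both, 3.95% with H2A.Z alone, 1.13% with H3K4me3 alone and 0.276% with neither, against 5.23% of all genes. For the cell-cycle factor E2FA the shares were 11.5%, 5.29%, 2.27% and 1.21%, against 8.41% of all genes. With H3K4me3 alone these were only 4 BTE1 and 8 E2FA genes of 353. With summits inside the gene in place of peaks at its ends, 555 genes had H3K4me3 alone. Of these, 6.49% were called for BTE1, 9.37% for E2FA, 49.4% for H3K4me1 and 48.1% for H3K4me2. The shares of BTE1, E2FA and H3K4me1 below those of all genes thus rest on the gene-end rule.

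A window at one gene can touch a peak that belongs to the next. Among 3652 genes with no other gene within 1000 bp, total Pol II was called at 59.0% of the 1346 genes with both, 2.36% of 888 with H2A.Z alone, 89.6% of 48 with H3K4me3 alone and 1.6% of 875 with neither. Over all 3652 the share was 26.6%, against 40.8% of all coding genes, and it was 20.2% among the 495 that differed between replicates. The order of the 4 classes was kept. The shares with H2A.Z alone and with neither were lower than among all genes, as was the share over all genes without neighbours. In the lists trimmed to equal length the shares were 54.0% of 14130, 12.04% of 1470, 82.2% of 1806 and 8.92% of 6903 genes. H3K4me2 then stood at 43.2% of the genes with H3K4me3 alone, against 88.3% of those with both.

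Class also went with gene length. The median gene was 2418 bp long with both features, 1601 bp with H2A.Z alone, 2006 bp with H3K4me3 alone and 1152 bp with neither, against 2078 bp for all genes. From the shortest to the longest of 4 equal groups of genes, both features were called at 31.7%, 59.9%, 72.1% and 78.0%, and H2A.Z alone at 25.2%, 17.7%, 11.8% and 9.51%. Within each of the 4 length groups, total Pol II was less frequent with H2A.Z alone (8.91% to 15.3%) and more frequent with H3K4me3 alone (77.6% to 87.1%) than with both (47.1% to 60.2%).

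The strongest genes of each class, ranked by the mean place of the gene's best peak within its list, illustrate the states. AT1G14450, AT1G14453 and AT1G14455 shared 1 peak of each feature, with folds of 8.52, 8.10 and 8.36 for H2A.Z in replicates 1 to 3 and of 10.73, 11.26 and 12.83 for H3K4me3. GPT (AT2G41490), which encodes an enzyme that starts N-glycan synthesis, had an H2A.Z peak at Chr2:17301622-17302269 in replicate 1 (TAIR10) with folds of 10.96, 10.30 and 11.78 over the 3 libraries. Its H3K4me3 peak at Chr2:17301617-17302500 in replicate 1 had folds of 10.56, 10.05 and 10.62. All H2A.Z and H3K4me3 summits at GPT lay 4 to 58 bp apart. AT1G15140 completed the strongest shared genes, with folds of 7.95, 7.88 and 7.49 for H2A.Z and 11.59, 10.10 and 10.47 for H3K4me3. These 2 peaks lay at opposite ends of AT1G15140, the H2A.Z peak shared with AT1G15130 and the H3K4me3 peak with AT1G15150, and the best H2A.Z summit inside AT1G15140 had a mean fold of 3.92.

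The strongest H2A.Z peak at a gene without H3K4me3 lay at AT2G01023, a gene of only 120 bp, at Chr2:9824-10221 in replicate 1, with folds of 9.97, 11.63 and 10.73. AGP5, which encodes an arabinogalactan protein, had 8.23, 7.71 and 7.65, and AT5G09876 had 8.06, 7.19 and 7.23 from a peak shared with AT5G09880. PLDGAMMA2 and PLDGAMMA3, adjacent genes of phospholipase D, shared a peak of 7.61, 7.59 and 8.36. MEE23 had 9.38, 9.50 and 9.89 from a peak shared with AT2G34780. At MEE23 and PLDGAMMA2 an H3K4me3 peak lay inside the gene in all 3 libraries, so these genes held both features when the whole gene was scored. AT2G01023, AGP5, PLDGAMMA3 and AT5G09876 had no H3K4me3 peak in any library, within the gene or 500 bp around it.

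The strongest H3K4me3 peaks at gene ends without H2A.Z were 1004 bp (FBR12) to 3232 bp (TIC) wide in replicate 1. They were picked by fold, and H3K4me3 peaks in the highest of 4 equal groups by fold had a median width of 915 ± 13.5 bp (SD, n = 3). GH9A1, the KORRIGAN endoglucanase of cellulose synthesis, had an H3K4me3 peak at Chr5:20198554-20200335 in replicate 1, 1782 bp wide, with folds of 11.70, 9.64 and 12.64. TIC, the clock regulator TIME FOR COFFEE, had a peak of 3232 bp in replicate 1 and folds of 10.58, 10.04 and 13.26. FBR12, which encodes the translation factor eIF5A, had folds of 10.37, 10.82 and 14.12, and AT3G51950 had 11.28, 10.40 and 10.86. RKD2, an RWP-RK transcription factor gene, had 10.33, 10.08 and 11.51, from a peak it shared with AT1G74470. None of these 5 had an H2A.Z peak in any library, within the gene or 500 bp around it, and all were called for total Pol II. AT1G27930, with 11.69, 10.51 and 11.90, had none at its ends but had H2A.Z inside the gene in all 3 libraries. Over the whole class, the best H3K4me3 peak was 824 ± 8.54 bp wide in genes with both and 986 ± 22.1 bp wide in genes without H2A.Z (medians per library, SD, n = 3). Among genes with total Pol II these widths were 885 ± 8.89 and 1064 ± 25.3 bp. Among genes without total Pol II they did not differ, at 750 ± 10.4 bp (7130 genes) and 750 ± 5.86 bp (55 genes). The median fold of the best H3K4me3 peak was 7.30 ± 0.295 in genes with both and 7.29 ± 0.433 in genes without H2A.Z. The best H2A.Z peak had a median fold of 4.59 ± 0.0507 in genes with both and of 2.93 ± 0.0473 in genes without H3K4me3.

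Some genes called for both stood at opposite ends of the 2 rankings. The genes with the highest H2A.Z place relative to H3K4me3 were PAKRP1 and MRH2, which encode kinesins, EMB2656, FU, a kinase needed for cytokinesis, and AT4G14970. PAKRP1 had H2A.Z folds of 8.38, 8.16 and 7.90 and H3K4me3 folds of 2.70, 1.94 and 1.67. MRH2 had 9.81, 8.85 and 9.05 for H2A.Z and 3.23, 2.44 and 2.23 for H3K4me3. EMB2656, FU and AT4G14970 had H2A.Z folds between 6.76 and 8.96 and H3K4me3 folds between 2.10 and 3.46. All were long genes of 5580 to 8022 bp, and all were called for H3K4me2, as were 84.2% of genes with both. MRH2 and FU were called for total Pol II, and PAKRP1, EMB2656 and AT4G14970 were not. At the other end stood AT1G60010, AT3G62650, AT5G23280 and the neighbours AT1G27290 and AT1G27300, which shared their peaks. Their H2A.Z folds lay between 1.80 and 2.26 and their H3K4me3 folds between 8.23 and 12.45. These genes were 1127 to 2043 bp long, and all were called for total Pol II, against 57.0% of genes with both. All were also called for H3K4me2, so that mark did not separate the 2 extremes.

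**Figure D2:**
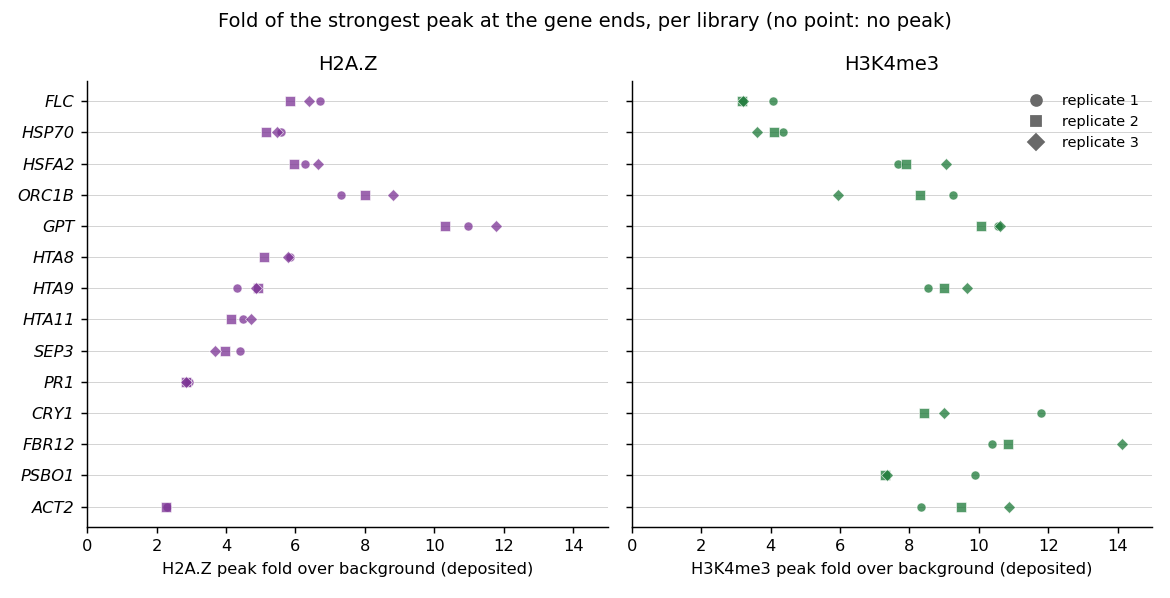
Fold of the strongest peak at the gene ends (x axes, the deposited ratio over background) for 14 named genes, H2A.Z on the left and H3K4me3 on the right, with 1 symbol per library and no symbol where a library had no peak. HTA8, HTA11, SEP3 and PR1 have points for H2A.Z alone, CRY1, FBR12 and PSBO1 for H3K4me3 alone, and ACT2 has H2A.Z points in 2 of 3 libraries. Folds are not comparable between the panels.

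Among genes known for H2A.Z, FLC, the MADS-box repressor of flowering, carried both features. Its H2A.Z peak at Chr5:3178901-3179496 in replicate 1 had folds of 6.69, 5.85 and 6.40 over the 3 libraries, and its H3K4me3 peak at Chr5:3178984-3179365 had 4.08, 3.17 and 3.21. The summits of the 2 features at FLC lay 2 to 51 bp apart, and total Pol II was not called there. HSP70 (AT3G12580), a heat-induced chaperone gene used as a marker of H2A.Z in warmth, had 5.58, 5.16 and 5.48 for H2A.Z and 4.36, 4.10 and 3.61 for H3K4me3. On the within-list scale, FLC and HSP70 stood at percentiles 93.4 and 85.3 of H2A.Z peaks but at percentiles 11.9 and 16.2 of H3K4me3 peaks. ACT2, an actin gene often used as a reference, had a weak H2A.Z peak with folds of 2.296 and 2.273 in replicates 1 and 2. Replicate 3 had no H2A.Z peak there. The H3K4me3 folds at ACT2 were 8.33, 9.50 and 10.86, the first from a peak at the other gene end than the rest.

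Lists of genes chosen by function were described by counts, with no test. Over all genes H2A.Z was called at 78.7% and H3K4me3 at 63.2%, with 60.4% for both, 16.1% for H2A.Z alone and 1.29% for H3K4me3 alone. When summits inside the gene were required in place of peaks at its ends, 13633 genes had both, 5153 had H2A.Z alone and 555 had H3K4me3 alone.

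Of 24 photosynthesis genes, 13 were called for H2A.Z (54.2%) and 22 for H3K4me3 (91.7%). By class, 12 had both (50%), none had H2A.Z alone, 3 had H3K4me3 alone (12.5%), and 9 differed between replicates. With summits inside the gene, 8 had both and 7 had H3K4me3 alone. PSBO1, of the oxygen-evolving complex, had H3K4me3 folds of 9.89, 7.30 and 7.34 and no H2A.Z peak. RBCS3B, a Rubisco small subunit gene, had 5.33, 6.93 and 5.95 and no H2A.Z peak. The RBCS3B fold of replicate 1 came from a different H3K4me3 peak than those of replicates 2 and 3. RCA, Rubisco activase, had both, with 4.96, 4.39 and 3.27 for H2A.Z and 7.16, 8.49 and 11.24 for H3K4me3 from a peak shared with AT2G39725. The RCA H2A.Z fold of replicate 3 came from a different peak than those of replicates 1 and 2, at the other gene end. PSAD-1, of photosystem I, had 4.73, 4.69 and 4.74 for H2A.Z and 10.29, 5.80 and 7.57 for H3K4me3, from a peak shared with AT4G02760. All 24 were called for total Pol II, against 40.8% of all genes, and 5 of them for H3K4me2, against 58% of all genes.

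Of 20 genes of cytosolic ribosomal proteins, 13 were called for H2A.Z (65%, against 78.7% of all genes) and 19 for H3K4me3 (95%, against 63.2%). Both were called at 13 (65%, near the 60.4% of all genes), H3K4me3 alone at 1, and 6 differed between replicates. With summits inside the gene, 6 had both and 6 had H3K4me3 alone, so the split of this list rests on the rule. RP1 (AT1G43170), the gene with H3K4me3 alone at its ends, had folds of 6.91, 6.90 and 7.69. Of 15 genes used as constitutive references, 12 had both (80%), 1 (the tubulin gene TUB2) had H3K4me3 alone, and ACT2 and UBQ10 differed between replicates. With summits inside the gene, 7 had both and 3 had H3K4me3 alone. All 15 were called for H3K4me3 and for total Pol II, against 63.2% and 40.8% of all genes.

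Of 24 genes induced by heat, cold or drought, 22 were called for H2A.Z (91.7%, against 78.7% of all genes). H3K4me3 was called at 12 of them (50%, against 63.2% of all genes). By class, 12 had both (50%, against 60.4% of all genes) and 7 had H2A.Z alone (29.2%, against 16.1%). The rest were 1 with neither and 4 that differed between replicates. HSFA2, a heat shock factor, had 6.29, 5.96 and 6.64 for H2A.Z and 7.66, 7.90 and 9.04 for H3K4me3, from peaks shared with AT2G26140, while the best H3K4me3 summit inside HSFA2 had a mean fold of 2.28. HSP18.2, a small heat shock protein gene, had 4.90, 5.36 and 5.26 for H2A.Z, from a peak shared with AT5G59710, and no H3K4me3 peak. GolS2, galactinol synthase, had 4.91, 4.88 and 4.39 for H2A.Z alone, and KIN1, a cold-induced gene, had neither. All 16 defence genes were called for H2A.Z, against 78.7% of all genes. H3K4me3 was called at 12 of them (75%, against 63.2% of all genes). The other 4 had H2A.Z alone (25%, against 16.1% of all genes). With summits inside the gene, 3 of 16 had H2A.Z alone, which is near the 5153 of 27444 over all genes, and 1 had neither. The 4 without H3K4me3 at their ends were the effector genes PR1, BGL2, PR5 and PDF1.2, while regulators such as NPR1 had both. PR1 had H2A.Z folds of 2.93, 2.85 and 2.85, and NPR1 had 5.30, 5.24 and 5.09 for H2A.Z and 9.74, 7.97 and 10.62 for H3K4me3.

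Genes for seeds and flowers mostly lacked H3K4me3, which was called at 63.2% of all genes. Of 13 seed storage and seed regulator genes, 2 had both, 7 had H2A.Z alone (53.8%, against 16.1% of all genes), 3 had neither and 1 differed between replicates. LEC2 and LEC1, regulators of embryo development, had H2A.Z folds of 4.90, 3.50 and 4.63, and of 4.45, 3.74 and 4.30. The LEC2 fold of replicate 1 came from a different peak than those of replicates 2 and 3, at the other gene end. CRA1, a storage globulin gene, and OLEO1, an oleosin gene, were called for both, but their H3K4me3 peaks were shared with the neighbours AT5G44110 and AT4G25130, and neither gene held summits of both features inside it in all 6 libraries. Of 10 floral organ MADS-box genes none was called for H3K4me3, 5 had H2A.Z alone, 3 had neither and 2 differed between replicates. SEP3 had H2A.Z folds of 4.39, 3.97 and 3.68, from a peak shared with AT1G24256, and AP3, a petal and stamen identity gene, had 3.32, 3.97 and 2.91. AG, a stamen and carpel identity gene, had no peak at its ends but had H2A.Z inside in 2 of 3 libraries. Of 15 flowering time genes, 9 had both (60%, near the 60.4% of all genes), 4 had H2A.Z alone (MAF4, MAF5, TSF and FD) and 2 (FT and TFL1) differed between replicates.

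Of 20 clock and light signalling genes, 16 had both (80%, against 60.4% of all genes). Among them was ZTL, with 5.81, 6.68 and 6.29 for H2A.Z, from a peak shared with AT5G57370, and 10.68, 9.84 and 12.25 for H3K4me3. CRY1, the blue-light receptor, had H3K4me3 folds of 11.79, 8.42 and 9.00 and no H2A.Z at its ends, with an H2A.Z peak inside the gene in 1 library. PIF3, a phytochrome-interacting factor, had H2A.Z folds of 2.60, 2.81 and 2.64 at its ends and summits of both features inside the gene. Of 27 Aux/IAA genes, which encode repressors of auxin signalling, 13 had both (48.1%), 8 had H2A.Z alone (29.6%, against 16.1% of all genes), 2 (IAA14 and IAA28) had H3K4me3 alone, 1 (IAA29) had neither and 3 differed between replicates. At IAA28 an H2A.Z peak lay inside the gene in 2 of 3 libraries. Relatives of 1 gene family thus fell into every class.

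All 11 genes of H3K4 methyltransferases and COMPASS had both features, against 60.4% of all genes, including WDR5a with 5.41, 5.52 and 5.52 for H2A.Z and 8.28, 9.59 and 7.47 for H3K4me3. Of 11 genes of H2A.Z and its exchange complexes, 7 had both (63.6%, near the share of all genes), 3 had H2A.Z alone and 1 (HTA4) had neither. The H2A.Z genes HTA8 and HTA11 carried H2A.Z alone, with 5.83, 5.09 and 5.80 at HTA8 and 4.48, 4.13 and 4.71 at HTA11. HTA9, the remaining H2A.Z gene named, had both, with 4.31, 4.93 and 4.86 for H2A.Z and 8.53, 9.00 and 9.67 for H3K4me3, from peaks shared with AT1G52730.

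All 25 DNA replication genes were called for H2A.Z, against 78.7% of all genes, and 18 (72%) for H3K4me3 as well, against 63.2%. Of the others, 2 had H2A.Z alone and 5 differed between replicates. With summits inside the gene, 15 had both, 3 had H2A.Z alone and 7 differed between replicates. In the 18 genes called for both at their ends, the H2A.Z peak had a median place at percentile 88.5 of its list and the H3K4me3 peak at percentile 29.3. Taken gene by gene, the median difference in place, H2A.Z minus H3K4me3, was 56.7 percentile points, against 13.8 points over all genes with both, whose median places were 73.5 and 60.6. ORC1B, of the origin recognition complex, had 7.32, 7.99 and 8.80 for H2A.Z and 9.27, 8.31 and 5.94 for H3K4me3. Both peaks were shared with AT4G12640, and the best H3K4me3 summit inside ORC1B had a mean fold of 3.26. ORC2 and MCM5, of the complexes that license origins, had H2A.Z alone, with 4.44, 4.41 and 3.75 at ORC2, from a peak shared with AT2G37550, and 2.42, 2.85 and 3.44 at MCM5. The median of the gene-by-gene difference was -28.3 points over the 13 ribosomal protein genes with both, whose median places were 59.1 for H2A.Z and 77.3 for H3K4me3. It was -15.2 points over the 12 reference genes with both, whose median places were 67.9 and 85.8. The H2A.Z lists are longer than the H3K4me3 lists, so these are places within each list and not levels.

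Peaks, compared as regions without genes, were nested in 1 direction. An H3K4me3 peak was overlapped by at least 1 bp for 59.7% ± 0.946 of H2A.Z peaks, and an H2A.Z peak for 94.5% ± 0.125 of H3K4me3 peaks (SD, n = 3). No library of the other feature had an overlapping peak for 38.8% ± 0.946 of H2A.Z peaks and for 3.79% ± 0.101 of H3K4me3 peaks, the last being 587, 627 and 610 peaks. Trimmed to equal length, the lists gave 81.2% of H2A.Z and 79.7% of H3K4me3 peaks, so the nesting was not seen at equal lengths.

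The strength of an H2A.Z peak went with the presence of H3K4me3. From the lowest to the highest of 4 equal groups of H2A.Z peaks by fold, 19.8%, 44.9%, 76.1% and 92.3% overlapped H3K4me3 in all 3 of its libraries. For H3K4me3 peaks the same shares with H2A.Z were 88.2%, 95.4%, 95.1% and 92.2%. H2A.Z peaks with H3K4me3 had a median fold of 4.27 ± 0.0403, against 2.54 ± 0.0141 without, and a median width of 588 ± 3.61 bp, against 442 ± 7.09 bp without (SD, n = 3). Both differences had the same sign in 3 of 3 libraries, with p = 0.25 in the exact sign-flip test, the smallest p that 3 libraries allow. H3K4me3 peaks with H2A.Z had a median fold of 6.83 ± 0.296, against 5.72 ± 0.273 without (p = 0.25, exact sign-flip test). That difference was -1.09 when at least 50% of the H3K4me3 peak had to be overlapped, so its direction rests on the overlap rule. Their widths were 794 ± 9.07 bp with and 784 ± 4.65 bp without H2A.Z, a difference that also changed sign with the overlap rule (-271 bp) and without H2A.Z replicate 1 (-3.83 bp).

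**Figure D3:**
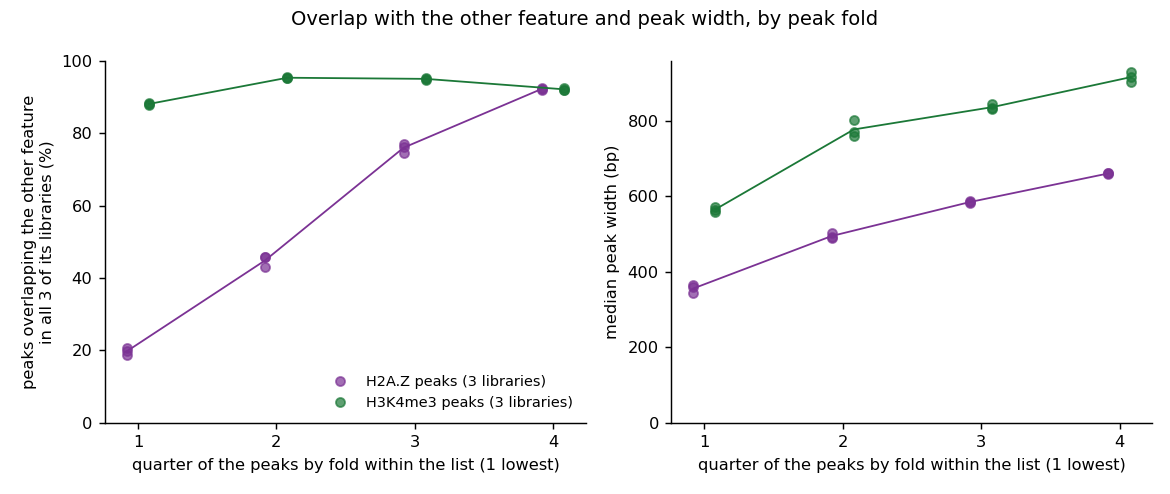
Peaks of each library in 4 equal groups by fold within their list (x axes, 1 lowest), with the share overlapping the other feature in all 3 of its libraries (left, %) and the median width (right, bp); points are libraries and lines join their means. The share climbs from 19.8% to 92.3% over the groups of H2A.Z peaks and stays between 88.2% and 95.4% for H3K4me3 peaks, which are wider in every group.

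Peaks with and without the other feature were set against gene positions. Of H2A.Z peaks with H3K4me3, 82.8% ± 0.243 had the summit inside a coding gene within 500 bp of an end, against 54.0% ± 0.693 of those without (SD, n = 3). Summits away from genes of any type and their ends were found for 0.361% of H2A.Z peaks with H3K4me3, against 12.8% of those without. Of H3K4me3 peaks, 80.5% ± 0.169 of those with H2A.Z and 56.3% ± 1.58 of those without had the summit inside a gene within 500 bp of an end. Summits inside genes but more than 500 bp from either end were found for 16.6% ± 0.171 of H3K4me3 peaks with H2A.Z and 37.1% ± 1.52 of those without. Only 1.10% of H3K4me3 peaks without H2A.Z lay away from genes.

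Within shared genes the summits of the 2 features lay close together, with H2A.Z slightly nearer the gene end. Summits of all 6 libraries lay inside 13633 genes, 13310 of which were also called for both by the gene-end rule. The median distance between an H2A.Z and an H3K4me3 summit of the same gene was 43 to 46 bp over the 9 library pairs. The corresponding distance between replicates was 30 to 32 bp for H2A.Z and 30 bp for H3K4me3. The separation between features was thus 13.8 bp above that between replicates (exact permutation of the 6 library labels, p = 0.1, the smallest possible). Within 150 bp, about the length of DNA on a nucleosome, lay 89.7% of between-feature pairs, against 95.1% of H2A.Z and 95.1% of H3K4me3 replicate pairs. Separations over 500 bp were found for 3.11% of between-feature pairs, against 1.38% and 0.758% of replicate pairs.

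The gene table used gives no strand, so positions are given from the nearer gene end. The median distance was 306, 310 and 310 bp for H2A.Z and 336, 336 and 340 bp for H3K4me3. The groups did not overlap, and the mean difference was -28.7 bp, H2A.Z being nearer (p = 0.1, exact permutation test). Gene by gene, H2A.Z summits of all libraries lay nearer the end than all H3K4me3 summits in 3411 genes (25.02%), and the reverse held in 850 (6.23%). In the remaining 68.7% the libraries overlapped. The median offset was -30.0 bp in 8477 genes with total Pol II and -11.7 bp in 5156 without, H2A.Z being nearer in both. By length, the offset was -8.67 bp in the shortest group of genes and -17.7, -24.0 and -27.3 bp in the next ones. The peak itself was narrower for H2A.Z in 79.6% of shared genes, with a median ratio of widths of 0.75. More than 1 summit inside the gene was found in 8.14% ± 0.572 of shared genes for H2A.Z and 2.25% ± 0.126 for H3K4me3 (SD, n = 3; p = 0.1, exact permutation test).

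**Figure D4:**
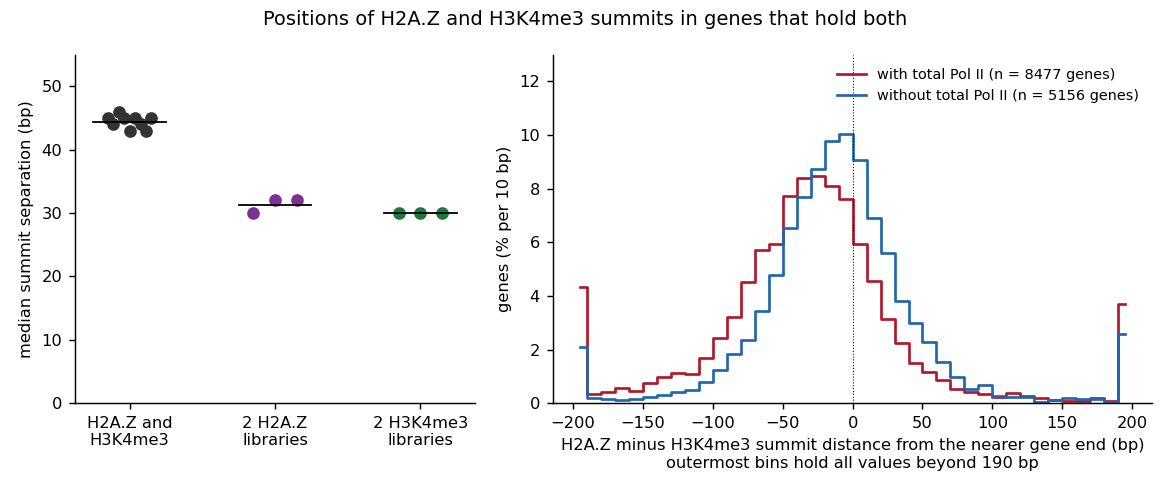
Left, median distance between summits of the same gene (bp) for each pair of libraries, with H2A.Z against H3K4me3 at 43 to 46 bp above both kinds of replicate pair at 30 to 32 bp; lines are means. Right, share of genes (y axis, % per 10 bp) by the H2A.Z minus H3K4me3 difference in distance from the nearer gene end (x axis, bp), where negative values mean H2A.Z nearer, with medians of -30.0 bp with total Pol II and -11.7 bp without.

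The widest separations were found in long genes, of 5764 to 7810 bp. In RECQ4A, a DNA helicase gene of 7810 bp, the H2A.Z summits lay 7177 to 7261 bp from those of H3K4me3. The H2A.Z peak at Chr1:3655021-3655677 in replicate 1 was shared with AT1G10940, and the H3K4me3 peak at Chr1:3647989-3648690 with AT1G10920, the genes on either side. AT1G31910 (6050 to 6087 bp), DML1, a DNA demethylase gene (5926 to 5999 bp), and BGAL4, a galactosidase gene (4917 to 4991 bp), followed. At DML1 the strongest H3K4me3 peak, of mean fold 7.43, lay close to the H2A.Z peak, and both were shared with AT2G36480. The separation at DML1 was measured from a weaker H3K4me3 summit inside the gene, of mean fold 2.41. Each of the genes named here had at least 1 peak that it shared with a neighbour, so the summits need not belong to the named gene.

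In genes with both features the 2 fold values ranked the genes with little relation to each other. Across 16574 genes the Spearman correlation between an H2A.Z and an H3K4me3 library was 0.05 to 0.10, against 0.93 between H2A.Z replicates and 0.65 to 0.70 between H3K4me3 replicates. Genes are not independent replicates, and peaks shared by neighbours enter more than once. Each fold is that of the best peak at either gene end, so the 2 folds can come from opposite ends, as at AT1G15140. The correlation covers only genes called for both. The correlation averaged 0.17 in genes without total Pol II, 0.08 in those with it, and 0.01 in the 1346 genes with no neighbour within 1000 bp.

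The 2 rankings went with Pol II, WDR5A-HA, H3K4me2, E2FA and BTE1 in opposite directions, and with H3K4me1 in the same direction. From the lowest to the highest of 4 equal groups by H2A.Z fold, total Pol II was called at 69.5%, 58.5%, 51.5% and 48.4% of genes. Over the groups by H3K4me3 fold, Pol II was called at 39.4%, 53.9%, 62.0% and 72.6%. WDR5A-HA was called at 77.8% of the lowest and 68.3% of the highest H2A.Z group, and at 55.2% of the lowest and 88.0% of the highest H3K4me3 group. H3K4me2 was at 71.4%, 83.8%, 89.3% and 92.4% over the H2A.Z groups and at 88.0%, 87.0%, 82.2% and 79.7% over the H3K4me3 groups. H3K4me1 was higher in the top group of both, at 70.6% against 40.2% in the lowest H2A.Z group and at 64.3% against 36.7% in the lowest H3K4me3 group. E2FA was called at 6.44% of the lowest and 17.8% of the highest H2A.Z group, and BTE1 at 3.31% and 11.7%. Over the H3K4me3 groups E2FA was called at 13.7% of the lowest and 9.07% of the highest, and BTE1 at 9.97% and 4.56%. The top H2A.Z group also held longer genes, with a median of 2817 bp against 2132 bp in the lowest.

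**Figure D5:**
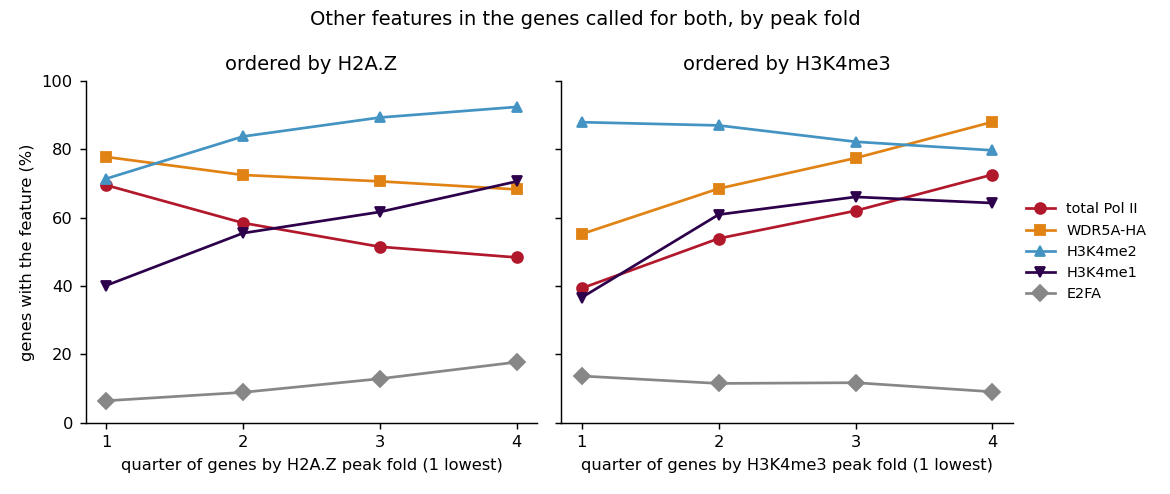
Share of genes with a further feature (y axis, %) over 4 equal groups of the genes called for both, ordered by H2A.Z fold (left) and by H3K4me3 fold (right), 1 lowest. Total Pol II declines over the H2A.Z groups, with 69.5% in the lowest and 48.4% in the highest, and climbs over the H3K4me3 groups, with 39.4% and 72.6%.

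Read the other way, shared genes with total Pol II had a lower H2A.Z fold and a higher H3K4me3 fold than shared genes without. H2A.Z folds had a median of 4.38 ± 0.0544 in 9444 genes with Pol II and 4.85 ± 0.0518 in 7130 without (SD, n = 3). H3K4me3 folds had a median of 7.65 ± 0.345 with Pol II and 6.77 ± 0.227 without. The H2A.Z peak was narrower with Pol II, at 598 ± 3.61 bp against 648 ± 4.58 bp, and the H3K4me3 peak wider, at 885 ± 8.89 bp against 750 ± 10.4 bp. Each difference had the same sign in 3 of 3 libraries (exact sign-flip test, p = 0.25, the smallest possible). With H3K4me2 the signs were the reverse, the H2A.Z fold being 4.73 ± 0.0558 with and 3.85 ± 0.0442 without, and the H3K4me3 fold 7.22 ± 0.299 with and 7.66 ± 0.287 without (p = 0.25 for each, exact sign-flip test). With H3K4me1 both folds were higher, at 4.88 ± 0.0735 with and 4.21 ± 0.0356 without for H2A.Z, and 7.57 ± 0.317 with and 6.78 ± 0.271 without for H3K4me3 (p = 0.25 for each, exact sign-flip test).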

How the data were processed

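Peak lists of 3 H2A.Z and 3 H3K4me3 libraries of wild-type seedlings were used, with those of 8 further features and a TBP list to describe the classes. Per the submitters' processing notes, reads were processed with fastp, Bowtie2 2.3.3, MACS2 2.2.5 and deepTools on build TAIR10. Which control the caller used was not given in the sources used here. Each deposited list gives positions, summits, a score, the fold ratio over background, and −log10 values of p and of q for every peak. The deposited score was 10 times the −log10 q when checked, and peak names carry a q-value of 0.05, per the files. Lists of the whole series hold positions only.

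Gene names and bounds were taken from RefSeq (assembly TAIR10.1), whose coordinates are not printed. It gives no strand, so distances are from the nearer gene end, and TBP regions did not orient the genes. H2A.Z, H3K4me3, H3K4me2, WDR5A-HA, BTE1, E2FA and TBP were called at 500 bp to either side of the gene ends, and Pol II and H3K4me1 over the gene. Promoter sequences were not used here.

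For libraries, two-sided exact permutation tests were used (smallest p 0.1), and for splits within a list exact sign-flip tests (smallest p 0.25). Genes are not replicates, so classes and lists are described without p-values. Named genes were the best-ranked of each class by fold percentile, those with the largest and lowest percentile difference, the 4 with the widest separation, the 2 best-ranked of each list in each class, and 6 chosen loci. Members and lists were chosen with earlier results of these data known. Computation used Python 3.11.15, numpy 2.4.6, pandas 2.3.3, scipy 1.17.1 and matplotlib 3.10.9, and class calls, offsets and tests were tested on simulated data.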

Additional observations from a re-analysis of the deposited data

Results flagged for a closer look

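Peaks on the chloroplast genome, outside the 5 chromosomes compared, were listed for H2A.Z in every library, 31 in replicate 1, 28 in replicate 2 and 27 in replicate 3. The lists of H3K4me3 and of the 8 other features held 0 in each of their libraries. The chloroplast peaks had median folds of 1.73 to 1.87 and reached at most 3.49, against a median of 3.44 on the chromosomes. They entered no comparison, and their source was not tested.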

How the results depend on the processing

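No alternative turned round a comparison of libraries: without single replicates the difference in peaks was 9914 to 10504, in width -254 to -245 bp, in summit separation 13.2 to 15 bp and in distance from the gene end -30.2 to -27.3 bp, with an exact p of 0.1 in each case. The odds ratio was 23.8 with peaks in at least 2 libraries, 27.3 with at least 1, 12.1 with summits inside the gene, 12.9 with 250 bp windows, 26.9 with 1000 bp windows, 15.1 with peaks touching the gene, 23.8 with the lists of the whole series, 22.6 with genes extended by 500 bp (chosen after seeing the data), 13.2 in genes with no neighbour within 1000 bp, and 21.2 to 22.2 without single replicates. Genes with H3K4me3 alone numbered 555 with summits inside the gene, 781 with 250 bp windows, 218 with 1000 bp windows and 563 with the lists of the whole series. The best-scoring 50% of each list left 6325 genes with both, 1285 with H3K4me3 alone and 9139 with neither, and an odds ratio of 4.66. Equal list lengths gave 1470 genes with H2A.Z alone, 1806 with H3K4me3 alone and 6903 with neither, and an odds ratio of 19.8. Genes with no neighbour within 1000 bp, fewer by construction, numbered 1346 with both, 888 with H2A.Z alone, 48 with H3K4me3 alone and 875 with neither. The share of H2A.Z peaks with H3K4me3 was 57.4% when at least 50% of the peak had to be covered, 45.6% in the best-scoring 50% of the lists and 81.2% at equal lengths. The share of H3K4me3 peaks with H2A.Z was 80.8%, 72.8% and 79.7% under the same settings, 93.1% with the summit inside the other peak, and 94.3% to 94.7% without single replicates. The fold difference of H3K4me3 peaks with and without H2A.Z turned to -1.09 under the 50% rule. Their width difference turned to -271 bp under that rule, to -11.3 bp with H2A.Z in at least 2 libraries and to -13 bp with the same-numbered library (replicate block), and lay between -3.83 and 6.33 bp without single H2A.Z replicates; the cause was not tested.

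Deviations of same-numbered libraries correlated at -0.01 to 0.00, and those of other-numbered libraries at -0.01 to 0.01. These values gave no sign of pairing by replicate number, but they cannot show whether libraries came from the same plants. With a replicate block the differences in peaks (10285) and width (-249.7 bp) kept their size with an exact sign-flip p of 0.25, the smallest possible. Windows at start sites and promoter letters, which need strand and sequence, were not run. Depth is unknown, so the absence of a peak is the absence of a call.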

Other observations

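Gene types other than protein-coding genes were scored with a peak touching the gene in all 3 libraries. By that rule protein-coding genes had both features in 54.99%, H2A.Z alone in 18.3%, H3K4me3 alone in 1.78% and neither in 15.6%. Of 287 small nucleolar RNA (snoRNA) genes, which guide modification of ribosomal RNA, 31.0% had both, 3.14% had H2A.Z alone, 26.1% had H3K4me3 alone and 26.5% had neither. Among the 118 snoRNA genes with no coding gene within 500 bp, 42 had both, 7 had H2A.Z alone, 25 had H3K4me3 alone and 24 had neither. Of 625 tRNA genes, 3 had both and 550 (88%) had neither. Of 3917 pseudogenes, 93.9% had neither feature. Of 3480 long non-coding RNA genes, 18.9% had both, but of the 1348 with no coding gene within 500 bp 4.30% had both, 16.2% had H2A.Z alone and 66.8% had neither. These types were not matched to coding genes in length.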
